A study of Homo sapiens with 8 samples.

Results

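The mitotic entry kinases and cyclins are a group of 10 genes, CDK1, CCNA2, CCNB1, CCNB2, PLK1, AURKA, TPX2, CDC20, CDC25C and WEE1, which were followed here in cells depleted of CHERP. The genes were chosen by name, and all rows that carry their symbols were taken from the splicing tables of the study, which gave 96 of 89379 splicing events in whole cells and 39 of 43559 in the cytoplasm. All 10 genes had an event in whole cells, and 7 had an event in the cytoplasm, where PLK1, CDC20 and CCNA2 had none. In the cytoplasmic expression table, 10 of 6757 listed genes were members.

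U2OS cells, a human osteosarcoma line, were studied 48 h after transfection at 20 nM with siRNA against EGFP, a gene foreign to these cells, or with CHERP #2 siRNA. CHERP is a nuclear protein with arginine/serine repeats that binds components of the U2 snRNP, the particle that recognizes the branch point of introns. Poly(A)+ RNA was read from whole cells and from the cytoplasmic supernatant of a detergent lysis, in 2 libraries per siRNA and fraction and 8 libraries in all. A single siRNA sequence was used for CHERP in these libraries, and all groups come from the same line without any other treatment.

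Entry into the M phase is driven by cyclin-dependent kinase 1, encoded by CDK1, bound to the B-type cyclins CCNB1 and CCNB2, while cyclin A, encoded by CCNA2, acts from the S phase on. WEE1 holds CDK1 inactive by phosphorylation and the CDC25C phosphatase removes that mark. PLK1 and AURKA are kinases that promote this switch and build the spindle, TPX2 activates AURKA on spindle microtubules, and CDC20 is the coactivator of the anaphase-promoting complex that later has cyclin B destroyed. Most of these transcripts are known to peak together in the G2 and M phases, through promoter elements such as CCAAT boxes, bound by NF-Y, and the cell cycle homology region, whose common form is TTTGAA.

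The promoter windows of the members are shown because the genes moved together in the values given further on. The RefSeq table (GRCh38.p14) gives 250 bases before and 50 bases after each start site and held 7 of the 10 members, with 1 window each for CCNA2, CCNB1, CCNB2, PLK1 and CDC20, 2 for CDK1 and 4 for CDC25C. AURKA, TPX2 and WEE1 had no entry. The 100 bases before the start of the 5 genes with a single window follow, 5′ to 3′ on the strand of the gene, with CCAAT (or ATTGG, its reverse complement) and TTTGAA (or TTCAAA) in capitals.
CCNA2 (chr4:121823884-121823983, minus strand): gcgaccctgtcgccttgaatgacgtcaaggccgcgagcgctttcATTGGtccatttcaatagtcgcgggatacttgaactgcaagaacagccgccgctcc
CCNB1 (chr5:69167050-69167149, plus strand): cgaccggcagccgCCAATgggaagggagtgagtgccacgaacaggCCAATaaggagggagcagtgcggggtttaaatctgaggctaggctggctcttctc
CCNB2 (chr15:59105046-59105145, plus strand): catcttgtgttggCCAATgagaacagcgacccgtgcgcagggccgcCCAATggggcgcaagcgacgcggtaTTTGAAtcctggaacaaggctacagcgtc
CDC20 (chr1:43358881-43358980, plus strand): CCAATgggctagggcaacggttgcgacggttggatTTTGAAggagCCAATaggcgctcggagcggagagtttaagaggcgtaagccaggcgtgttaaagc
PLK1 (chr16:23678789-23678888, plus strand): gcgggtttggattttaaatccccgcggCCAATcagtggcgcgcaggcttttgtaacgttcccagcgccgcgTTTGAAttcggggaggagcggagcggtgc

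The letters CCAAT were found on either strand in the windows of 7 of the 7 members, and in those of 39.7% of all 27305 genes in the table. TTTGAA was found on either strand for 5 of the 7 members, all but CCNA2 and CCNB1, against 18.2% of all genes. The motifs share no bases with each other in the printed windows. Among genes with 1 window, CCAAT was found for 5 of 5 members against 36.2% of genes, and TTTGAA for 3 of 5 against 16.02%. A match of these letters is a description of the sequence only.

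The libraries were checked on CHERP first. In whole cells its value, in reads per base of effective length summed over events and scaled between libraries, was 0.548 and 0.337 in the EGFP libraries and 0.0124 and 0.0620 in the CHERP libraries, a log2 fold change of -3.45 (SE 0.57, limma adjusted p = 0.00139), which became -1.98 with a pseudocount of 0.1 in place of 0.01. In the cytoplasm it was 0.390 and 0.275 against 0.0372 and 0.05002, and the gene fell below the filter of 20 reads per library. The reads summed over all events ranged from 29409956 to 35664568 for whole cells and from 5370756 to 6580099 for the cytoplasm, and a read on several events counts at each. The median absolute log2 difference between the libraries of a group was between 0.125 and 0.228. Of the markers of a mesenchymal or bone cell, VIM had a mean of 70451 reads and RUNX2 of 9.25 reads in whole cells, while COL1A1 and SPARC had no event and ALPL had one only in the cytoplasm, at 22 reads. The epithelial marker KRT8 had a mean of 14961 reads and CDH1 of 9.75 reads, and EPCAM, KRT18 and the blood markers PTPRC and CD74 had no event. KRT8 fell by 0.53 on the log2 scale in whole cells (limma adjusted p = 0.0123) and by 0.50 in the cytoplasm (adjusted p = 0.000912), whereas VIM rose by 0.23 (adjusted p = 0.00451) and ALPL by 2.47 (adjusted p = 0.00163) in the cytoplasm. Members of both lists with too few reads to be tested went the other way. RUNX2 had 16 and 18 reads in the EGFP and 0 and 3 in the CHERP libraries of whole cells. In the cytoplasm it had 16 and 20 against 3 and 6. CDH1 had 1 and 1 reads against 22 and 15 in whole cells, and 2 and 1 against 8 and 14 in the cytoplasm. The summed level of the measured epithelial markers was between 38.8 and 51.5 in the EGFP and between 30.7 and 31.4 in the CHERP libraries of whole cells, and that of the mesenchymal or bone markers between 199 and 210 and between 235 and 242. KRT8 and VIM make up nearly all of these sums. The part of these markers in the results was not tested.

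In whole cells, all 10 genes were lower in the CHERP-depleted libraries than in the controls. The log2 fold change lay between -1.47 for CDC20 and -0.59 for CDK1, with a median of -1.23, while the median of all genes tested was 0.016. All 10 passed the test, against 17.7% of 9660 genes called lower at an adjusted p under 0.05 and 19% called higher, 36.7% in either direction. The values of every member were lower in both CHERP libraries than in both EGFP libraries, as were those of 34.4% of all genes. In RNA of a whole culture, fewer cells in the G2 and M phases and less RNA per cell cannot be told apart.

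Among the kinase and cyclin subunits, CDK1 had the smallest change. Its value was 34.4 and 39.6 in the EGFP libraries and 23.9 and 24.96 in the CHERP libraries, a log2 fold change of -0.59 (SE 0.11, limma adjusted p = 0.00223). The groups did not overlap, and the EGFP libraries lay further apart than the CHERP libraries. CCNB1, the main mitotic cyclin, was at 30.4 and 34.8 against 16.2 and 14.5, a log2 fold change of -1.08 (SE 0.11, adjusted p = 0.00011). CCNB2, its close relative, was at 3.76 and 3.94 against 1.74 and 1.63, a log2 fold change of -1.19 (SE 0.14, adjusted p = 0.000229). Both B-type cyclins thus fell with a gap between the groups far wider than the gap between libraries of a group. CCNA2 was at 3.19 and 3.64 against 1.72 and 1.54, a log2 fold change of -1.06 (SE 0.15, adjusted p = 0.000667), and this value rests on 1 event.

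**Figure D1:**
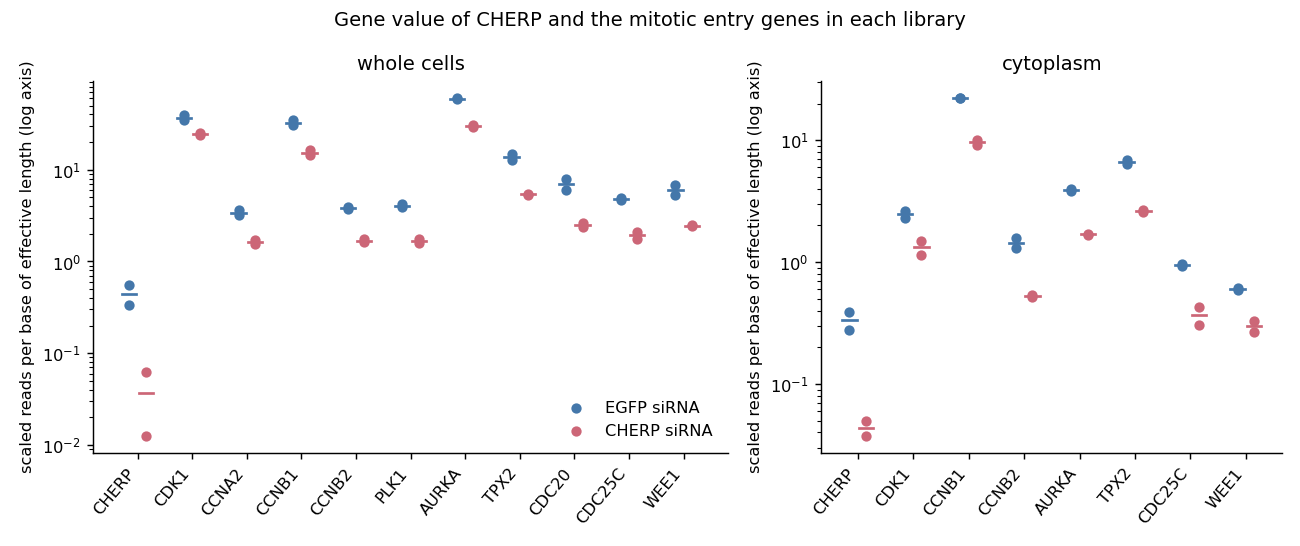
Gene value in each library on a log axis, in scaled reads per base of effective length, for CHERP and the mitotic entry genes in whole cells (left) and in the cytoplasm (right). Points are libraries, 2 per siRNA, and lines are their means. The CHERP siRNA libraries lie below the EGFP siRNA libraries for every gene shown. A value sums the events of a gene, so heights do not compare genes.

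The regulators of CDK1 fell on both sides of the switch. WEE1, the inhibitory kinase, was at 5.25 and 6.78 in the EGFP libraries and 2.42 and 2.505 in the CHERP libraries, a log2 fold change of -1.27 (SE 0.15, limma adjusted p = 0.000231). CDC25C, the activating phosphatase, was at 4.63 and 4.95 against 1.77 and 2.08, a log2 fold change of -1.31 (SE 0.15, adjusted p = 0.000148). The inhibitor and the activator therefore had changes whose standard errors overlap.

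The mitotic kinases and their partners fell as well. PLK1 was at 3.90 and 4.23 in the EGFP libraries and 1.74 and 1.57 in the CHERP libraries, a log2 fold change of -1.29 (SE 0.15, limma adjusted p = 0.000164). AURKA was at 60.5 and 58.3 against 29.3 and 31.1, a log2 fold change of -0.98 (SE 0.10, adjusted p = 8.04e-05), and its value sums 35 events that share reads. TPX2, the activator of AURKA, was at 12.6 and 14.8 against 5.34 and 5.44, a log2 fold change of -1.34 (SE 0.12, adjusted p = 4.88e-05). CDC20 had the largest change of the group, from 7.88 and 6.07 to 2.63 and 2.36, a log2 fold change of -1.47 (SE 0.16, adjusted p = 0.000118). The EGFP libraries of CDC20 differed by more than those of PLK1 or AURKA: 1 of its 2 exon events had 901 and 369 inclusion reads in them and 205 and 152 in the CHERP libraries, whereas the other had 1270 and 1393 against 575 and 508.

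In the cytoplasm the 7 members with events were also lower in both CHERP libraries, as were 36% of all genes, and 7 of 7 passed the test, against 22.5% of 7293 genes called lower and 25.8% called higher. Their median log2 fold change was -1.20, against 0.014 for all genes. CCNB1, the member with the most cytoplasmic reads, was at 22.1 and 22.3 in the EGFP libraries and 9.21 and 10.1 in the CHERP libraries, a log2 fold change of -1.20 (SE 0.07, limma adjusted p = 2.3e-07). CCNB2 was at 1.31 and 1.57 against 0.517 and 0.534, a log2 fold change of -1.43 (SE 0.17, adjusted p = 3.71e-05). CDK1 was at 2.64 and 2.28 against 1.15 and 1.501, a log2 fold change of -0.90 (SE 0.15, adjusted p = 0.000459). The cytoplasmic value of CDK1 sums 2 events with log2 ratios of -0.51 and -1.22, and from the event with the most reads alone its log2 fold change was -1.32, so its order against the cyclins depended on the event.

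The regulators gave lower cytoplasmic values in every CHERP library too. WEE1 was at 0.592 and 0.612 against 0.329 and 0.266, a log2 fold change of -1.002 (SE 0.22, limma adjusted p = 0.00272), from 1 event. CDC25C was at 0.968 and 0.926 against 0.304 and 0.429, a log2 fold change of -1.36 (SE 0.21, adjusted p = 0.000275), with between 38 and 122 reads per library. For these 2 genes the depth is the lowest among the members and the standard errors are the widest. AURKA was at 3.99 and 3.81 against 1.67 and 1.71, a log2 fold change of -1.20 (SE 0.10, adjusted p = 4.06e-06). TPX2 was at 6.36 and 6.86 against 2.69 and 2.58, a log2 fold change of -1.32 (SE 0.09, adjusted p = 7.15e-07).

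**Figure D2:**
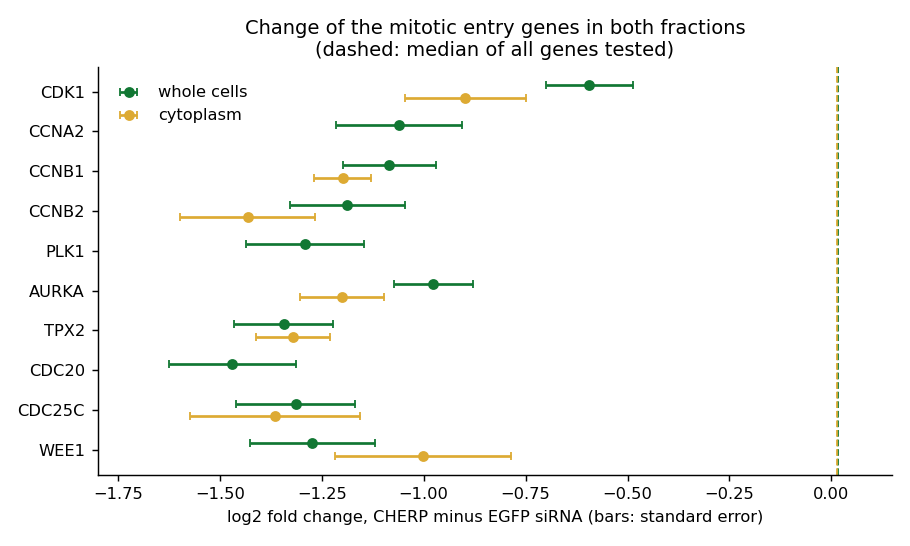
log2 fold change of each gene, CHERP siRNA minus EGFP siRNA, in whole cells (green) and in the cytoplasm (yellow). Bars are standard errors of the limma fit with 2 libraries per group, and dashed lines are the medians of all genes tested, 0.016 and 0.014. All points lie between -1.47 and -0.59, and CCNA2, PLK1 and CDC20 have a whole-cell point only.

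The changes in both fractions were set against each other in a single fit over all 8 libraries, which asks whether the siRNA effect on a gene differs between cytoplasm and whole cells. The cytoplasmic minus the whole-cell log2 fold change was -0.30 (SE 0.19) for CDK1, -0.12 (SE 0.14) for CCNB1, -0.24 (SE 0.21) for CCNB2 and -0.22 (SE 0.12) for AURKA. It was 0.022 (SE 0.15) for TPX2, -0.051 (SE 0.26) for CDC25C and 0.27 (SE 0.25) for WEE1. None of the 7 members passed, at a limma adjusted p of 0.995 for each. Of all 7059 genes 0 passed as well (percent called 0), with 348 genes or 4.93% at an unadjusted p under 0.05. A p that misses the threshold does not show that the fractions changed alike.

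The cytoplasmic expression table, which lists selected genes only, holds 2 columns of means of normalized counts that its header names C1 and C2 without tying them to an siRNA. These are the authors' means, with no value per library. CHERP itself was at 209 in C1 and 1685 in C2, and all 10 members were likewise lower in C1. Of the listed genes, 41.8% were lower in C1. The list holds only genes that the authors selected, so this share is not a background of all expressed genes. CDC20 was at 4023 and 7725, PLK1 at 1625 and 3910 and CCNA2 at 1267 and 2207. These 3 genes have no cytoplasmic splicing event, so the means are their only cytoplasmic values here. TPX2 was at 3287 and 7270, CCNB1 at 3053 and 5995, AURKA at 2043 and 4002 and CCNB2 at 1124 and 2639. CDK1 was at 1524 and 2140, WEE1 was at 525 and 1155, and CDC25C, the lowest of the group, was at 107 and 297.

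Levels were compared between genes only per length, from the exon-skipping (SE) event of each gene with the most reads, in scaled reads per kb. In control whole cells CCNB1 and CDK1 led, with means of 11594 and 11379, and their libraries overlapped. AURKA, TPX2 and CDC20 followed at 5470, 5385 and 5191, again with overlapping libraries. CCNA2 at 3414 and CCNB2 at 2699 stood apart from their neighbours. WEE1 and PLK1 overlapped at means of 1951 and 1844, and CDC25C was the lowest at 371. In the cytoplasm of control cells the order was CCNB1 at 5857, TPX2 at 2079, CDK1 at 1448 and CCNB2 at 1441, which overlapped, then AURKA at 966, WEE1 at 602 from an alternative 3′ splice site (A3SS) event, and CDC25C at 161. In CHERP-depleted whole cells CDK1 was ahead of CCNB1, at 7007 against 5514 reads per kb. The order holds only for the events used. For CDC20 in control whole cells, the event used had 1270 and 1393 inclusion reads over an effective length of 262 bases. Its other event had 901 and 369 over 374 bases. For CDK1 in the control cytoplasm, the event used had 364 and 314 inclusion reads over 244 bases. Its other event had 140 and 127 over 135 bases. Levels of the fractions are on separate scales and were not compared.

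The lower gene values were seen at every well-read event of the members. All 66 member events of the exon-skipping, alternative 5′ splice site (A5SS) and A3SS types that averaged 20 or more reads in whole cells had lower values in both CHERP libraries, as had 32.4% of all such events. In the cytoplasm it was 19 of 19, against 31.8% of all. The events of a gene share reads and are not independent. The log2 ratio of the event values in whole cells lay between -1.40 and -0.34 over 29 AURKA events and between -1.77 and -0.74 over 14 CDC25C events. It was narrow in the cyclins, between -1.13 and -1.07 over 4 CCNB1 events and between -1.20 and -1.14 over 2 CCNB2 events. The lowest ratio, -1.89, belonged to the CDC20 event in which the EGFP libraries differ, and the other event of this gene gave -1.36.

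**Figure D3:**
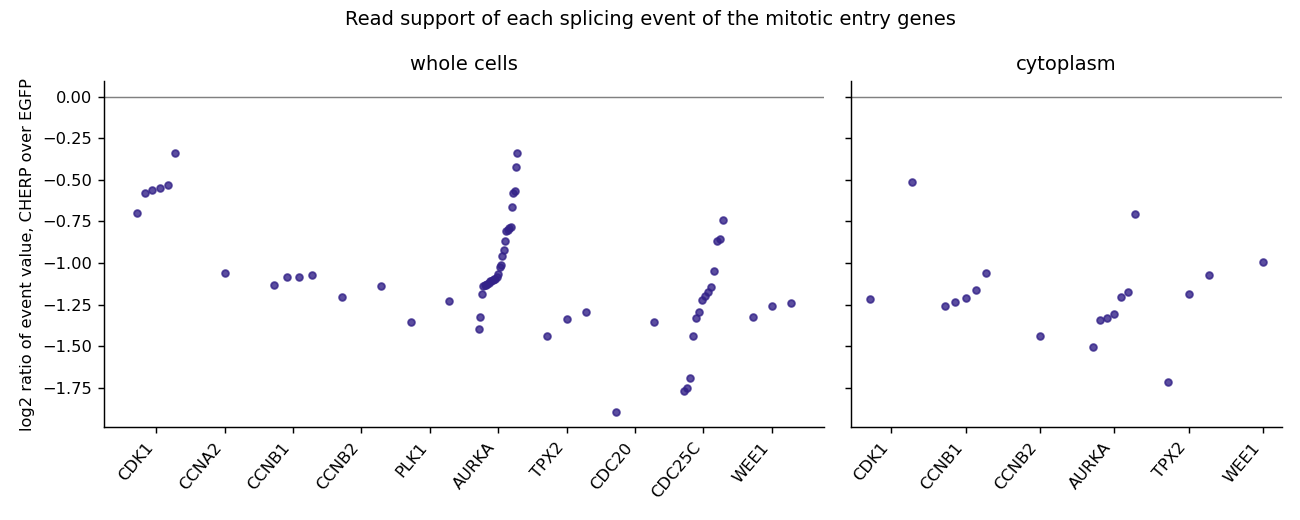
log2 ratio of the event value, CHERP over EGFP siRNA, for each exon-skipping, A5SS and A3SS event that averaged 20 or more reads. Each point is 1 event, ordered by its ratio within a gene, and the grey line marks no change. All 66 whole-cell points (left) and 19 cytoplasmic points (right) lie under 0, and CDC25C has no cytoplasmic event with that many reads.

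The splicing of the members was then tested by inclusion against skipping reads. In whole cells 1 of 96 member events passed an FDR of 0.05, against 1.12% of all events, and in the cytoplasm 0 of 39 passed in the quasi-binomial test, against 0.413% of all. At an unadjusted p under 0.05 there were 12 and 2 member events, against 6.51% and 4.24% of all events. Limma on the log odds called 0 member events in both fractions. It called only 1 of all 89379 whole-cell events and 0 of all 43559 cytoplasmic events, so this count describes no trait of the members. Of the 12 whole-cell events, 9 were in AURKA, whose 45 events overlap. Inclusion levels without overlap between siRNAs were found for 40 of 87 member events that averaged 20 or more reads in whole cells, against 29.7% of all. In the cytoplasm it was 5 of 21, against 28% of all. AURKA alone gave 22 of the 40, from 39 events that share reads, and 4 of the 5, from 9 events. The counts are therefore no trait of the group as a whole. The only retained intron (RI) event of the group was in CCNB2, with levels of 0.000797 and 0.00235 in the EGFP libraries and 0 of 401 and 0 of 311 reads in the CHERP libraries, which allow levels of up to 0.00429 and 0.00553 at 3 reads.

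Exons of CDK1 and CDC25C and the splice sites of an AURKA exon are printed because the inclusion levels that follow refer to them. The sequences were read from GRCh37, 5′ to 3′ on the strand of the gene, with 20 intron bases before and 6 after each whole exon. Capitals mark the start codon in CDK1, the exon in CDC25C, and the exon end at each AURKA splice site.
CDK1 exon 2 (chr10:62539879-62539966, plus strand): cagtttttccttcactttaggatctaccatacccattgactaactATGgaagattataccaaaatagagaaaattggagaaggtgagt
CDC25C exon 6 (chr5:137661498-137661613, minus strand): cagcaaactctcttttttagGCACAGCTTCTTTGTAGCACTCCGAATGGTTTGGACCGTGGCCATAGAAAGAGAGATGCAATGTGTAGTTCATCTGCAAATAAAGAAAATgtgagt
AURKA 3′ splice site (chr20:54963835-54963860, minus strand): gtctcgctcttttcccatagGCTGGA
AURKA 5′ splice site (chr20:54963723-54963748, minus strand): TTACAGgtgactgccaccacgctcag

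The event that passed was the skipping of CDK1 exon 2, at chr10:62539899-62539960 (GRCh37, plus strand), a 62-nt exon that holds the start codon. The inclusion level was 0.991 and 0.981 in the EGFP libraries and 1.000 and 0.999 in the CHERP libraries, a difference of 0.0132 at an FDR of 0.0492, against 0.893% of whole-cell exon-skipping events called. The skipped form had 9 and 26 reads in the EGFP libraries and 0 and 1 reads in the CHERP libraries, and 0 reads allow a level down to 0.997. The call was lost with limma on the log odds (FDR 0.418) and without the second EGFP library (0.764), the first CHERP library (0.861) or the second CHERP library (0.491). Limma on the log odds called only 1 of all 89379 whole-cell events. The event with the same CDK1 exon and a farther downstream exon had levels of 0.969 and 0.979 against 1.000 and 1.000, at an FDR of 0.784, where the CHERP libraries allow levels down to 0.913 and 0.916. In the cytoplasm the first of these events overlapped between the siRNAs, at 1.000 and 0.972 against 1.000 and 0.978 (FDR 0.923). Both events have the upstream exon at chr10:62538215-62538328. Beside the upstream exon at chr10:62538251-62538426 the whole-cell levels overlapped, at 1.000 and 0.998 against 1.000 and 1.000 (FDR 0.784). That event had a mean of 546 reads and was chosen after its values were seen. Nearly all CDK1 transcripts held the exon under both siRNAs.

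The cytoplasmic event with the lowest FDR was the alternative TPX2 exon of 108 nt, a coding exon whose length is a multiple of 3 and which is in 1 of 2 coding transcripts of the gene in GENCODE. It was included at 0.0765 and 0.0592 in the cytoplasmic EGFP libraries and at 0 and 0.00833 in the CHERP libraries, from 31 and 27 inclusion reads against 0 and 1, at an FDR of 0.112. The 0 of 59 reads allow a level of up to 0.0201. With the dispersion taken from events whose rarer form had 10 or more reads, the FDR was 0.00148. In whole cells the level was 0.0531 and 0.0639 against 0.0126 and 0.0455, at an FDR of 0.447, so the groups did not overlap in either fraction.

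**Figure D4:**
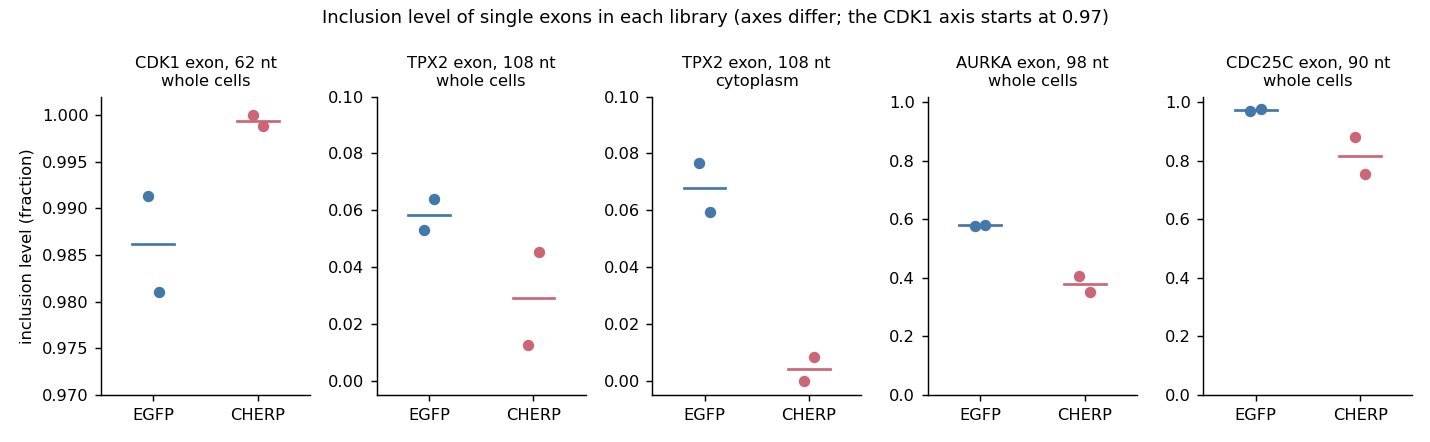
Inclusion level, a fraction of transcripts from reads over effective length, of exons named in the text. Points are libraries, 2 per siRNA, and lines are means. The y axes differ between panels, and that of CDK1 starts at 0.97. The CDK1 exon passed the FDR of 0.05 and the others did not, and the events shown were named for libraries that do not overlap between the siRNAs.

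The largest difference in inclusion level among the named events was in AURKA, in a 98-nt untranslated exon at chr20:54963743-54963840 (GRCh37, minus strand) that is in 4 of 13 coding transcripts. Beside the upstream exon at chr20:54967210-54967271, the level in whole cells was 0.577 and 0.583 in the EGFP libraries and 0.407 and 0.353 in the CHERP libraries, a difference of -0.20 at an FDR of 0.210. Beside the upstream exon at chr20:54967224-54967252, which overlaps the former, it was 0.476 and 0.422 against 0.387 and 0.250, at an FDR of 0.520. In the cytoplasm the same events gave 0.953 and 1.000 against 0.793 and 0.872 and 0.909 and 0.953 against 0.885 and 0.695, both at an FDR of 0.762 and with means of 33 and 33.8 reads. The level of 1.000 rests on 47 inclusion and 0 skipping reads, which allow a level down to 0.870, under the 0.872 of a CHERP library. Both cytoplasmic events had the same inclusion reads, 47 and 47 against 18 and 16. None of these 4 events, which were named for not overlapping, passed the test. A longer form of this upstream region, at chr20:54966999-54967351, spans both of these upstream exons. Beside it the levels in whole cells overlapped between the siRNAs, at 0.639 and 0.570 against 0.689 and 0.444. Beside the exon at chr20:54965612-54965721 the 98-nt exon was at 0.601 and 0.605 against 0.489 and 0.469 in whole cells (FDR 0.698). Its levels there overlapped in the cytoplasm, at 0.540 and 0.498 against 0.511 and 0.540. These further events of the exon were chosen after their values were seen.

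CDC25C exon 6, a 90-nt coding exon at chr5:137661504-137661593 (GRCh37, minus strand), had levels of 0.972 and 0.979 in the EGFP libraries of whole cells and 0.881 and 0.755 in the CHERP libraries, a difference of -0.16 at an FDR of 0.784, in the event whose upstream exon is at chr5:137661710-137661743. The skipped form had 1 and 1 reads against 2 and 7. In the event with the same downstream exon and the upstream exon at chr5:137664173-137664218, chosen after its values were seen, the levels overlapped, at 0.480 and 0.519 against 0.533 and 0.418 in whole cells (FDR 0.934), and at 0.417 and 0.230 against 0 and 0.402 in the cytoplasm, from a mean of 8 reads. Exon 9, of 102 nt at chr5:137626328-137626429, had 0.979 and 0.984 against 0.952 and 0.824 in whole cells, at an FDR of 0.784. In these events of exons 6 and 9 that did not overlap, the second CHERP library was the lowest. In whole cells the named exons of CCNA2, CCNB1 and WEE1 differed by between 0.00234 and 0.0108, all toward more inclusion after CHERP depletion, at an FDR of 0.784 each. In the cytoplasm the same CCNB1 exons had overlapping levels and differences of -0.00192 and -0.00266. The exon events of PLK1 and CDC20 had at most 2 skipping reads in any library.

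Other genes of the cell cycle were counted from 4 lists. Of 23 tested genes of G2/M control outside the members, 15 were lower in whole cells and 1 was higher, with a median log2 fold change of -0.85. In the cytoplasm 14 of 21 were lower and 0 higher, with a median of -0.72. The shares over all genes were 17.7% lower and 19% higher in whole cells, and 22.5% and 25.8% in the cytoplasm. MYBL2, a transcription factor of the complex that activates late cell cycle genes, fell by 1.96 on the log2 scale in whole cells (SE 0.11, limma adjusted p = 4.68e-06) and by 1.93 in the cytoplasm (SE 0.07, adjusted p = 5.87e-09). HMMR, a spindle protein, fell by 1.57 in whole cells. GTSE1, a microtubule-binding protein of G2, fell by 2.11 in whole cells and by 1.91 in the cytoplasm. ARPP19, which inhibits the phosphatase PP2A-B55 during mitosis, was the gene that rose in whole cells, by 0.57 (SE 0.12, adjusted p = 0.00587), and its cytoplasmic log2 fold change was 0.00083 (SE 0.17).

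Of the anaphase-promoting complex, which CDC20 activates, and its regulators, 4 of 16 tested genes were lower and 2 higher in whole cells, with a median of -0.060, and 5 of 15 were lower and 3 higher in the cytoplasm, with a median of -0.15. Over all genes 17.7% were lower and 19% higher in whole cells, and 22.5% and 25.8% in the cytoplasm, so these counts were not far from the background. UBE2C, its ubiquitin-conjugating enzyme, fell by 0.93 in whole cells and by 0.59 in the cytoplasm on the log2 scale. FBXO5, an inhibitor of the complex, fell by 0.92 in whole cells and by 0.89 in the cytoplasm. The subunit CDC23 fell by 0.47 in whole cells and by 0.73 in the cytoplasm. The subunits ANAPC10 and ANAPC11 rose, by 0.48 and 0.51 in whole cells and by 0.48 and 0.60 in the cytoplasm.

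Of the G1 and S phase list, 6 of 16 tested genes were lower and 2 higher in whole cells, with a median of -0.23, and 5 of 12 were lower and 2 higher in the cytoplasm, with a median of -0.17, beside the same shares over all genes. CDK2, the kinase of the G1/S transition, fell by 1.503 in whole cells and 1.32 in the cytoplasm on the log2 scale. Its cyclins fell too, CCNE2 by 1.46 in whole cells and CCNE1 by 0.68 in whole cells and 0.75 in the cytoplasm. The genes that rose were CCND2, a D-type cyclin, by 2.28 and 1.85, and CDKN1A, the CDK inhibitor p21, by 1.21 (SE 0.26, limma adjusted p = 0.00526) and 1.503 (SE 0.21, adjusted p = 0.000124). Of 6 subunits of PP2A-B55, the phosphatase that opposes CDK1, 1 was lower and 2 higher in whole cells, with a median of 0.23. In the cytoplasm 2 were lower and 4 higher, with a median of 0.42, beside the same shares over all genes. In whole cells PPP2CB, a catalytic subunit, rose by 0.63 and PPP2R1A, a scaffold subunit, by 0.62, while the scaffold subunit PPP2R1B fell by 0.37. Of the B55 subunits themselves, PPP2R2A fell by 0.37 in the cytoplasm (SE 0.10, limma adjusted p = 0.0133). PPP2R2D rose there by 0.54 (SE 0.19, adjusted p = 0.0318). In whole cells neither passed, at log2 fold changes of -0.28 (SE 0.14) for PPP2R2A and 0.17 (SE 0.18) for PPP2R2D.

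**Figure D5:**
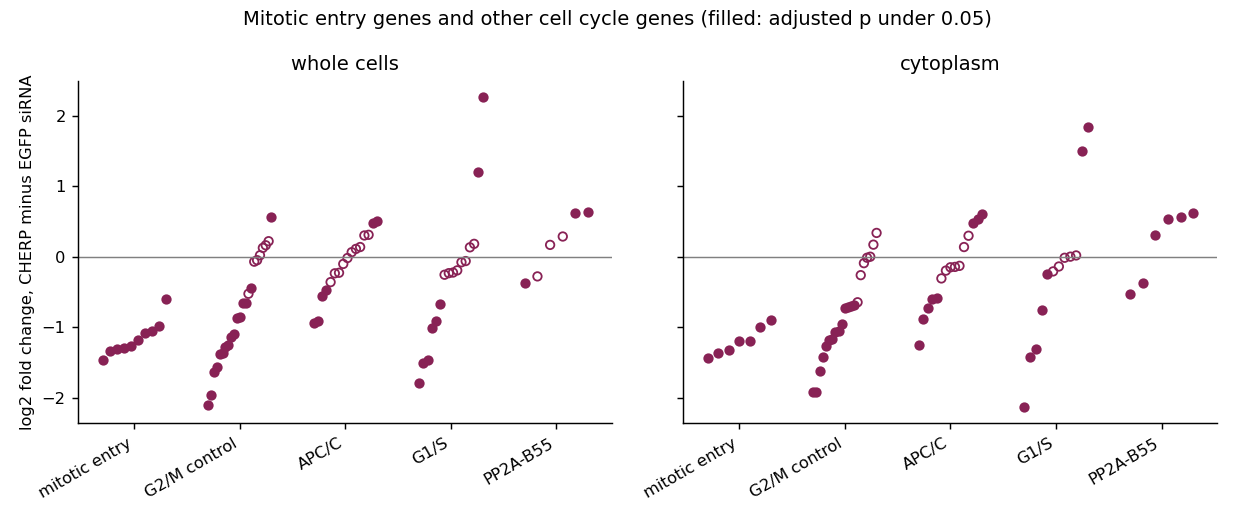
log2 fold change, CHERP minus EGFP siRNA, of the mitotic entry genes and of the genes of 4 further lists in whole cells (left) and in the cytoplasm (right). Each point is a gene, and filled points have a limma adjusted p under 0.05. All mitotic entry genes are filled and under 0, and the other lists hold genes on both sides of 0.

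Genes outside the group with the most similar pattern were taken by the Pearson correlation with the mean log2 value of the members over the 8 libraries, each fraction centred on its mean, among 7059 genes. The 5 highest were HNRNPDL, an RNA-binding protein (r = 0.9996), TOPBP1, a DNA replication and checkpoint protein (0.9990), TOP2A, the topoisomerase of mitotic chromosomes (0.9988), PLOD2, a collagen-modifying enzyme (0.9988), and ZCRB1, an RNA-binding protein (0.9987). The points share libraries, depth and the contrast of the siRNAs, so a high value describes a gene that also fell. The log2 fold change in whole cells and in the cytoplasm was -0.93 and -1.03 for HNRNPDL and -1.77 and -1.96 for TOP2A. Within the group, r was highest for CCNB1 at 0.996 and lowest for CDK1 at 0.956, each being part of the mean it was compared with.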

How the data were processed

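The authors made stranded poly(A)+ libraries, mapped the reads to hg19 with STAR 2.5.2b and counted splicing events with rMATS, whose version is not given in the sources used here. The deposited tables give reads on the inclusion and the skipping form per library, without normalization, and the effective length of each form. They also hold 20 columns of inclusion levels, recomputed here from the reads, and the authors' p-values, FDR and differences, which were not used. The deposited cytoplasmic expression table holds means of normalized counts (RSEM 1.2.25, GENCODE annotation, EBSeq), the authors' fold and a posterior probability, of which only the means were used.

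For each gene, reads divided by effective length were summed over its exon-skipping, A5SS and A3SS events. Libraries were then scaled by median ratios. Genes that averaged 20 or more reads were tested in each fraction separately with limma 3.58.1 (R 4.3.3) on log2(value + 0.01). Fold changes of low genes are understated on this scale. Genes without an event are not measured. Events were tested with a quasi-binomial model and a dispersion moderated by limma's squeezeVar within each type. The prior degrees of freedom were infinite in all 10 tables, so the spread of a single event had no weight. Benjamini-Hochberg adjustment ran over all genes, or over all events of a type, at a threshold of 0.05. With 2 libraries per group, the p-values rest on a spread shared among genes or events. The limits at 0 reads use 3 reads and cover counting error only.

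CHERP, all members, their events past the FDR, their 2 largest differences without overlap per fraction, 2 genes per list, direction and fraction by adjusted p, and the 5 most similar genes are named. The members and lists were chosen with earlier results of these data known. Exons were placed with GENCODE 44 lifted to GRCh37, the assembly of hg19, whereas the authors used an older release, and sequences were read with samtools 1.23.1, pysam 0.24.0 and Python 3.11.15. The sequence of a TPX2 exon is not reported here. The tests were run on simulated data. They recovered 69% of simulated 2-fold gene changes in whole cells and 75% in the cytoplasm. Of inclusion changes of 0.3 of the reads, 75.5% and 73.5% were recovered, in well-read events of intermediate inclusion. Smaller inclusion changes, and changes in events with nearly all reads on a single form, were not simulated.

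Alternatives were the scaling, the pseudocount, read filters, the event types summed, the variance trend, the dispersion rule, limma on log odds, and leaving out each library.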

Additional observations from a re-analysis of the deposited data

How the results depend on the processing

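The fold changes of CHERP in whole cells and of all members kept their direction and their side of the threshold in 195 of 195 alternative fits, with a largest adjusted p of 0.0408, for CDK1 in whole cells. Scaling by the summed value moved the median log2 fold change of all genes to -0.035 in whole cells and -0.10 in the cytoplasm, and the members stayed lower. No paired analysis was possible because the libraries joined in a cell of the tables carry no replicate number. Without 1 library, the genes called lower in whole cells numbered between 1049 and 2350 and those called higher between 1027 and 2488, against 1707 and 1839 with all libraries, and the lowest counts came without either CHERP library. Of all whole-cell events, 1001 passed, 1 with limma on the log odds and between 341 and 1113 without 1 library. Of member events, 1 passed, 0 with limma and between 0 and 3 without 1 library. Of the cytoplasmic events, 180 passed, 0 with limma, 422 with the dispersion of events whose rarer form had 10 or more reads and between 56 and 78 without 1 library, and for member events 0 became 1 under that dispersion. The interaction with fraction was called for 0 genes and for between 0 and 19 without 1 library, and for no member. Its sign turned for TPX2, to -0.019 with events shared by both fractions, and to as low as -0.096 without 1 library, where it lay between -0.096 and 0.15, and for CDC25C, to 0.096 with a pseudocount of 0.1, and to as high as 0.20 without 1 library, where it lay between -0.28 and 0.20. The cause of these changes was not tested. Forms with few reads limit what can be said of single splicing events, and the spread of an event over 2 libraries is poorly known.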
